A study of Mus musculus with 12 samples.

Results

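This account covers the genes of the T cell receptor (TCR) complex and of its nearest signalling proteins in naive CD4 T cells: Cd3d, Cd3e, Cd3g, Cd247, Cd4, Lck, Zap70, Lat and Lcp2. They were found as the probe sets of the array whose annotated gene symbol is one of these names. Of the 9 genes, 8 had such a probe set, 1 each, among 23410 probe sets with at least 1 symbol and 28853 in all. Lck was not analysed here.

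The TCR binds peptide on MHC molecules through chains that cannot signal by themselves. The signal is carried by the CD3 delta, epsilon and gamma chains (Cd3d, Cd3e, Cd3g) and the CD3 zeta chain (Cd247), whose cytoplasmic tails are phosphorylated by the kinase LCK, brought close by the coreceptor CD4. The kinase ZAP-70 (Zap70) then docks on the phosphorylated tails and phosphorylates the adaptors LAT and SLP-76 (Lcp2), on which phospholipase C gamma 1 and other effectors assemble. In activated T cells the receptor on the surface is taken up and partly degraded, which is known for the protein and was not measured here.

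The RNA was from naive CD4 T cells of mice of the C57BL/6 strain. The mice were WT or carried a transgene for PP2Ac, the phosphatase subunit encoded by Ppp2ca that holds the active site of PP2A; the promoter of the transgene and the age of the mice are not given in the sources used here. Cells were unstimulated (0 h) or had 6 h or 24 h of stimulation with soluble hamster antibodies, to the CD3 epsilon chain at 0.25 ug/mL and to CD28 at 0.5 ug/mL, held on the plate by a goat antibody against hamster antibodies. There were 6 groups of 2 arrays, and in each group the title of 1 array ends in Rep; that array is called marked Rep and the other unmarked, and values are given in the order unmarked, marked Rep. The labels do not say that the 2 arrays came from separate mice or cultures, so a p-value here reflects only how far these samples spread, and the number of arrays limits the precision. The label of the source of the WT cells also contains the word transgenic; the arrays were grouped by their titles.

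The transgene product was checked first: Ppp2ca read 13.15 and 13.15 on the WT arrays and 13.90 and 13.88 on the transgenic arrays at 0 h. These did not overlap, as was the case for 33.3% of all probe sets. Averaged over the 3 times Ppp2ca was higher in transgenic cells by 0.57 ± 0.05 on the log2 scale (SE, limma adjusted p = 0.0044). At the single times it was higher by 0.74 at 0 h, 0.38 at 6 h and 0.60 at 24 h (SE 0.08 each). None of these had an adjusted p under 0.05 (limma, 0.055 at 0 h, 0.28 at 24 h and larger than both at 6 h). The 6 activation genes used as a check of stimulation had a called rise in both genotypes at 6 h. Of all probe sets, 12.6% in WT and 12.5% in transgenic cells were called higher there. At 24 h, 4 of the 6 had a called rise in each genotype, where 26.7% and 23.8% of all probe sets were called in either direction. T cell identity markers (8 measured, among them Thy1 and Cd28) had a mean level between 12.63 and 13.27 on every array. Neutrophil markers (8) ranged from 7.79 to 12.23 and were lower on the 3 WT arrays marked Rep (7.79 to 8.77) than on any other array (10.04 to 12.23). Monocyte and macrophage markers (7) were also lowest on those 3 arrays (8.25 to 8.75, against 9.87 to 10.48 elsewhere). The 2 CD8 markers ranged from 9.05 to 11.02. No marker gene of any list had a mean over the arrays at or below their lower quartile, 6.01. For the 8 TCR genes, values in the next paragraphs are given with and without the 3 WT arrays marked Rep where a call depends on them. Calls of single pathway and marker genes were not checked in this way.

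**Figure D1:**
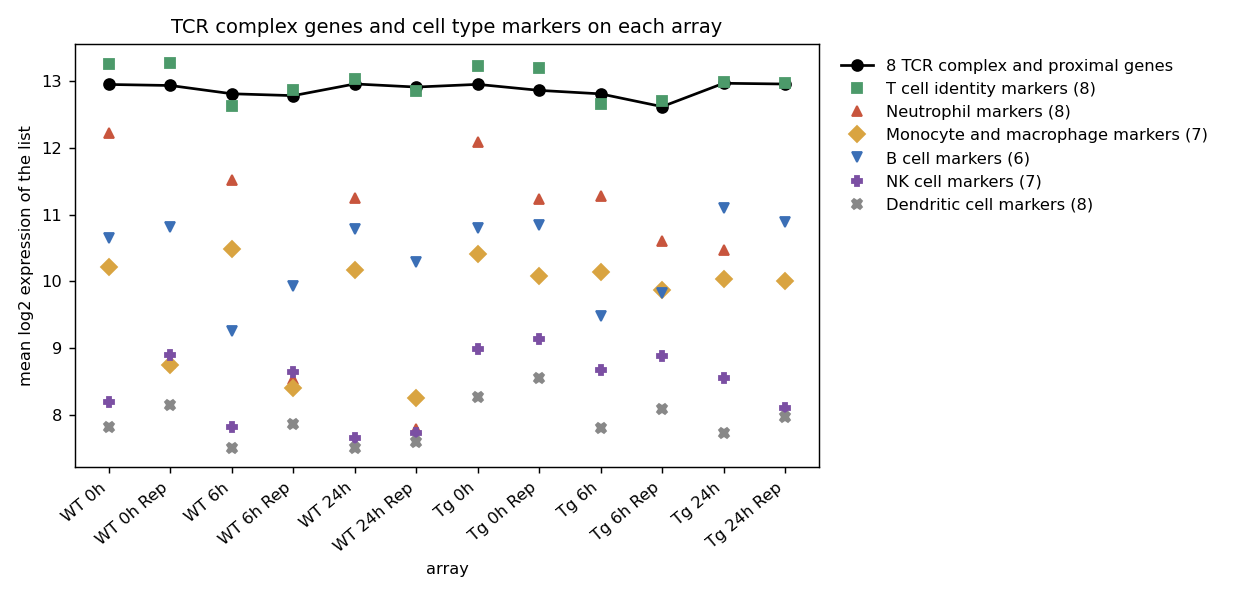
Mean log2 expression of the 8 TCR complex and proximal genes and of 6 marker lists (number of genes in brackets) on each of the 12 arrays. The TCR genes lie between 12.62 and 12.97 on all arrays, while neutrophil markers drop to between 7.79 and 8.77 on the WT arrays marked Rep.

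Cd3g, Cd3d and Cd3e are neighbouring genes on mouse chromosome 9, in this order, with no other annotated gene between them. Cd3g and Cd3d are transcribed away from each other from starts 1355 bases apart, and the start of Cd3e lies 27825 bases from that of Cd3d. The 250 bases before the start of each are printed because the changes of these neighbours are compared with each other, together with those of Zap70, whose response had the opposite sign to that of Cd3d. They are from RefSeq, build GRCm38.p6, 5′ to 3′ on the strand of the gene. Capitals mark each match, on either strand, to an E-box (CAGGTG) or an SP1 motif (GGGCGG).
Cd3d, chr9:44981536-44981785, plus strand: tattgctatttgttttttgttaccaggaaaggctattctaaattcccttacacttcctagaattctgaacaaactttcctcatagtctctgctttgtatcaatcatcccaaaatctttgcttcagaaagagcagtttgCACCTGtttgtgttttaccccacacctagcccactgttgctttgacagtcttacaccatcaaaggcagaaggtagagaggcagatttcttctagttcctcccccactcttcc
Cd3g, chr9:44980432-44980681, minus strand: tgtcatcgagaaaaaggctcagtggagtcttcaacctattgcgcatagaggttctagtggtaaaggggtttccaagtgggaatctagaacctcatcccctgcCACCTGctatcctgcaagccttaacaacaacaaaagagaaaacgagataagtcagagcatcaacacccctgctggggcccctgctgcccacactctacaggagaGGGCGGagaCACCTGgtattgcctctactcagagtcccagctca
Cd3e, chr9:45009612-45009861, minus strand: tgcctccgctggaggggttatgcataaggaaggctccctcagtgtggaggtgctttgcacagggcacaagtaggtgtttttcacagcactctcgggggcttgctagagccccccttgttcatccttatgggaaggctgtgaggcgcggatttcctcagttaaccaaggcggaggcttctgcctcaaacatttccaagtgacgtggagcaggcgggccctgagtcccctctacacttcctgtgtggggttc
Zap70, first of its annotated starts, chr1:36761548-36761797, plus strand: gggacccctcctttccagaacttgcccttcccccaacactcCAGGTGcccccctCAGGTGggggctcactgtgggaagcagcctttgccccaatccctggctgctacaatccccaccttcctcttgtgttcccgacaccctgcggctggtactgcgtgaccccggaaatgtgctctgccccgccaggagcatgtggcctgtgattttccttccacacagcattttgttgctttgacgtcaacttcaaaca

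The E-box letters occurred in the windows of Cd3d, Cd3g, Cd247 and Zap70, 4 of the 7 genes with an entry, against 17.2% of 32851 windows of the same length over all genes. They did not occur in the windows of Cd3e, Lat and Lcp2. The SP1 letters were in the window of 1 gene, Cd3g (32.7% of all windows). Windows of 0 of the 7 genes held the RUNX motif TGTGGT (14.0%), the AP-1 motif TGANTCA (6.75%) or the TATA motif TATAAA (12.4%), and all 7 held the short ETS core GGAA (93.4%), which is not in capitals. These are matches of letters, counted at the first start of each gene; Zap70 has other annotated starts, the window of 1 of which held a match to the RUNX motif, and Cd4 had no entry.

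During the first 6 h of stimulation, transcripts of the CD3 delta and gamma chains, CD3 zeta and CD4 fell in both genotypes, and that of the kinase ZAP-70 rose. The falls were 0.34 to 0.58 on the log2 scale, which leaves 0.67 to 0.79 of the starting signal, and the rises of Zap70 were 0.83 and 0.81, or 1.78-fold and 1.76-fold. In WT cells 6 of the 8 genes passed an adjusted p under 0.05, 1 higher and 5 lower, where 26.5% of all tested probe sets passed (12.6% higher, 13.9% lower). In transgenic cells 5 of the 8 passed, 1 higher and 4 lower, against 25.4% of all (12.5% higher, 12.9% lower). The same 5 genes passed in both. The median change of the 8 genes was -0.36 in each genotype, against -0.01 in WT and 0.00 in transgenic cells for all tested probe sets. Without the 3 WT arrays marked Rep, Cd3d (-0.59) and Zap70 (0.77) still passed in WT, while Cd3g (-0.40), Cd247 (-0.36), Cd4 (-0.33) and Lat (-0.34) did not (adjusted p 0.22 to 0.31), and in transgenic cells Cd247 was lost (-0.37, adjusted p = 0.064). In bulk RNA, fewer cells of a type and less RNA per cell cannot be told apart.

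**Figure D2:**
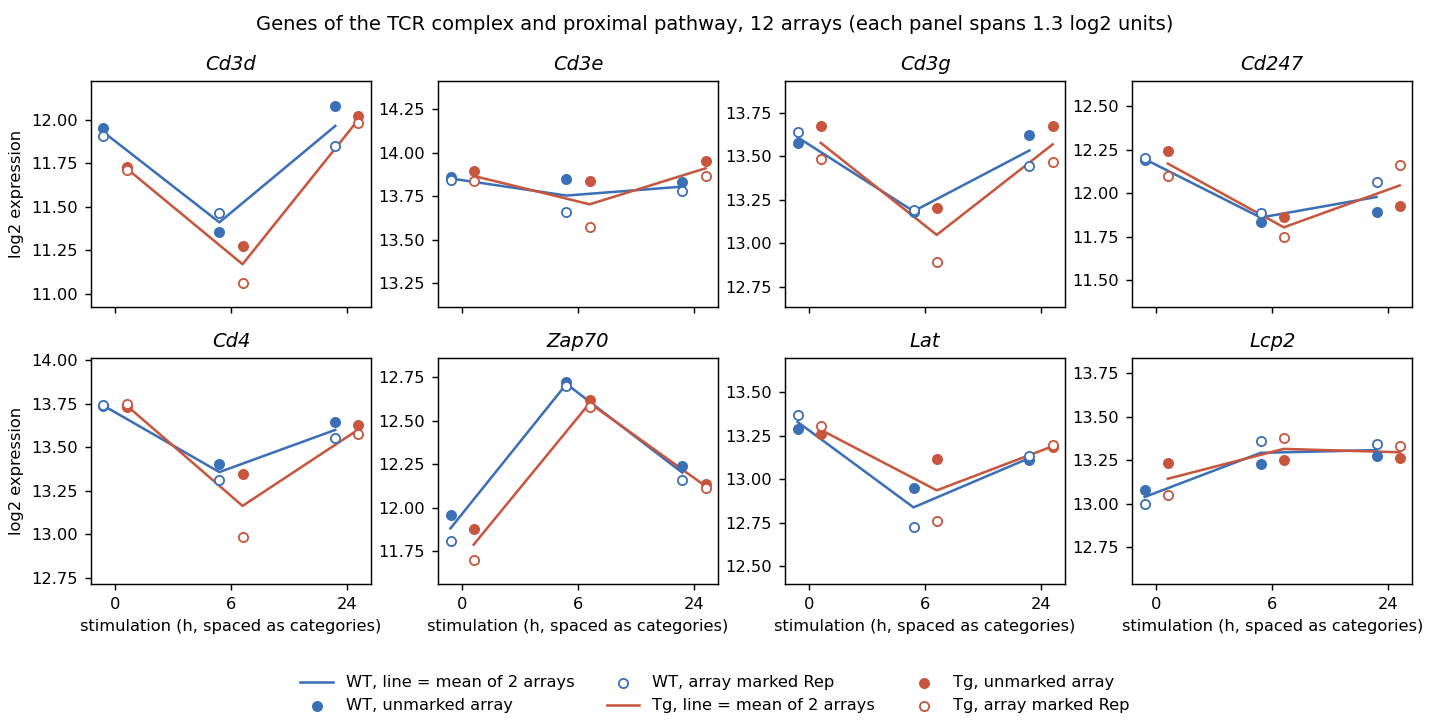
Log2 expression of each of the 8 genes on the 12 arrays at 0, 6 and 24 h (filled, unmarked array; open, array marked Rep; lines join the means of 2 arrays). Zap70 is highest at 6 h in both genotypes, Cd3d, Cd3g and Cd4 are lowest at 6 h, and Cd3e has the narrowest range of group means, 0.21.

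The CD3 delta chain pairs with the epsilon chain in the receptor. Its gene Cd3d (probe set 10584821) read 11.95 and 11.91 in WT cells at 0 h, 11.36 and 11.46 at 6 h, and 12.08 and 11.85 at 24 h. In transgenic cells it read 11.73 and 11.71, then 11.28 and 11.07, then 12.02 and 11.98. With 2 arrays against 2, a lack of overlap between times was common. Of all probe sets, 58.5% in WT and 60.2% in transgenic cells had no overlap between 6 h and 0 h. Between 24 h and 0 h the shares were 60.3% and 60.7%, and between 24 h and 6 h 52.6% and 54.5%. These shares are the background of each statement on the overlap of times below. For Cd3d the 6 h arrays lay below the 0 h and the 24 h arrays in each genotype without overlap. The fall at 6 h was -0.52 ± 0.10 in WT (SE, limma adjusted p = 0.0046) and -0.55 ± 0.10 in transgenic cells (adjusted p = 0.0034), and it was called in all 23 settings of the test in each genotype (a minimum of 2-fold, which no change of the 8 genes reached, is counted apart). From 6 h to 24 h Cd3d rose by 0.55 ± 0.10 in WT (adjusted p = 0.0086) and by 0.83 ± 0.10 in transgenic cells (adjusted p = 0.0015). The WT rise did not pass without the unmarked 6 h array (0.50, adjusted p = 0.053), without the unmarked 24 h array (0.44, adjusted p = 0.064), or in a fit of the WT 6 h and 24 h arrays alone (adjusted p = 0.094). At 24 h against 0 h the differences were 0.04 ± 0.10 and 0.28 ± 0.10, neither of which passed.

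The CD3 gamma chain also pairs with epsilon. Cd3g (10593015) read 13.58 and 13.64 in WT at 0 h, 13.18 and 13.19 at 6 h, and 13.62 and 13.44 at 24 h. The transgenic arrays read 13.67 and 13.48, then 13.20 and 12.89, then 13.67 and 13.46. Again the 6 h arrays were the lowest of each genotype, and the 0 h and 24 h arrays overlapped. Cd3g fell at 6 h by -0.42 ± 0.13 in WT (limma adjusted p = 0.034) and by -0.53 ± 0.13 in transgenic cells (adjusted p = 0.013). The WT call was lost without any 1 of the 4 arrays compared (-0.39 to -0.46, adjusted p 0.090 to 0.15), and the transgenic call without the unmarked 0 h array (-0.43, adjusted p = 0.10) or the 6 h array marked Rep (-0.37, adjusted p = 0.096). The later rise was 0.52 ± 0.13 in transgenic cells (adjusted p = 0.025); it did not pass without the unmarked 24 h array (0.42) or the 6 h array marked Rep (0.36), at an adjusted p of 0.17 each, nor without the 3 WT arrays marked Rep (0.52, adjusted p = 0.054). In WT it was 0.35 ± 0.13 (adjusted p = 0.11, and 0.047 with the mark Rep as a replicate block).

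The CD3 epsilon chain is the one that the stimulating antibody binds. Cd3e (10593024) read 13.86 and 13.84 in WT at 0 h, 13.85 and 13.66 at 6 h, and 13.83 and 13.78 at 24 h. In transgenic cells the readings were 13.90 and 13.84, then 13.84 and 13.57, then 13.95 and 13.87. The 0 h and 6 h arrays overlapped in both genotypes. Its changes at 6 h, -0.10 ± 0.10 in WT and -0.16 ± 0.10 in transgenic cells, did not pass (limma adjusted p = 0.58 and 0.33), and their 95% intervals ran from -0.33 to 0.14 and from -0.40 to 0.07. Whether the 3 neighbouring genes differed in their response was compared within arrays over both genotypes, a comparison chosen after the separate changes had been seen. Cd3d fell relative to Cd3e by 0.40 and Cd3g relative to Cd3e by 0.35 between 0 h and 6 h, with no overlap of the 4 and 4 within-array differences in either case. For each the exact two-sided permutation p was 0.029, the smallest that 70 arrangements can give, and 0.043 after adjustment over the 3 pairs. That test moves arrays freely between genotypes and marks, although arrays of the same mark deviated together. With times exchanged only within the 4 pairs of arrays of the same genotype and mark, the exact permutation p was 0.125 for each, which is the smallest that 16 arrangements can give, so that a call is out of reach; Cd3d and Cd3g fell relative to Cd3e in 4 of 4 such pairs. Cd3d and Cd3g differed in their change by -0.06 (exact permutation p = 0.51), a difference within the spread of the arrays.

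CD3 zeta has most of the phosphorylation sites of the complex. Cd247 (10351353) read 12.19 and 12.20 in WT at 0 h, 11.83 and 11.89 at 6 h, and 11.89 and 12.06 at 24 h. The transgenic values were 12.24 and 12.10, then 11.86 and 11.75, then 11.93 and 12.16. The 6 h arrays lay below the 0 h arrays, and the 24 h arrays lay between them or reached the 0 h values. It fell at 6 h by -0.34 ± 0.10 in WT (limma adjusted p = 0.042) and by -0.37 ± 0.10 in transgenic cells (adjusted p = 0.030). Of the falls called in WT it was called in the fewest settings, 10 of 23, and in transgenic cells in 16 of 23. It failed in each genotype when any 1 of the 4 arrays compared was left out (WT -0.31 to -0.36, adjusted p 0.096 to 0.16; transgenic adjusted p 0.053 to 0.18). Its differences at 24 h, -0.22 ± 0.10 in WT and -0.13 ± 0.10 in transgenic cells against 0 h, did not pass.

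CD4 binds MHC class II and carries LCK to the receptor. The Cd4 transcript (10547894) read 13.73 and 13.74 in WT at 0 h, 13.40 and 13.31 at 6 h, and 13.64 and 13.55 at 24 h. In transgenic cells it read 13.73 and 13.75, then 13.34 and 12.98, then 13.63 and 13.57. The 3 times did not overlap in either genotype, with 6 h lowest and 0 h highest. The fall at 6 h was -0.38 ± 0.11 in WT (limma adjusted p = 0.033) and -0.58 ± 0.11 in transgenic cells (adjusted p = 0.0043). Without any 1 of its 4 arrays the WT fall did not pass (-0.34 to -0.43, adjusted p 0.073 to 0.14), whereas the transgenic fall passed in all 23 settings. A rise from 6 h to 24 h was called in transgenic cells (0.44 ± 0.11, adjusted p = 0.031), and was lost, among others, without the 6 h array marked Rep (0.26, adjusted p = 0.16) or the 3 WT arrays marked Rep (0.44, adjusted p = 0.073). In WT that change was 0.24 ± 0.11 (adjusted p = 0.21).

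ZAP-70 is the kinase that reads the phosphorylated CD3 and zeta tails. Zap70 (10345509) read 11.96 and 11.81 in WT at 0 h, 12.72 and 12.70 at 6 h, and 12.24 and 12.16 at 24 h. In transgenic cells the readings were 11.88 and 11.70, then 12.62 and 12.58, then 12.14 and 12.11. All 3 times were separate in both genotypes, with 6 h highest and 24 h between. The rise at 6 h was 0.83 ± 0.09 in WT (limma adjusted p = 0.00015) and 0.81 ± 0.09 in transgenic cells (adjusted p = 0.00018), in all 23 settings of each. Zap70 then fell from 6 h to 24 h, by -0.51 ± 0.09 in WT (adjusted p = 0.0064) and by -0.48 ± 0.09 in transgenic cells (adjusted p = 0.0077). The WT fall did not pass without the 3 WT arrays marked Rep (-0.48, adjusted p = 0.093).

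Zap70 was the 1 gene of the 8 whose difference between 24 h and 0 h was called within a genotype. It was still higher by 0.32 ± 0.09 in WT (limma adjusted p = 0.024, where 26.7% of all probe sets passed) and by 0.34 ± 0.09 in transgenic cells (adjusted p = 0.022, where 23.8% passed). In WT this call was lost without the 0 h array marked Rep (0.24, adjusted p = 0.16), the unmarked 24 h array (0.28, adjusted p = 0.12) or the 24 h array marked Rep (0.36, adjusted p = 0.059). In transgenic cells it was lost without the same 3 arrays of that genotype (0.25, 0.32 and 0.35, adjusted p = 0.16, 0.11 and 0.071). It was also lost without the 3 WT arrays marked Rep together (WT 0.28, adjusted p = 0.25). Between 6 h and 24 h, 2 of the 8 genes passed in WT, 1 higher and 1 lower, against 13.3% of all probe sets (7.49% higher, 5.86% lower). In transgenic cells 4 passed, 3 higher and 1 lower, against 14.3% (7.89% higher, 6.42% lower). These comparisons share the 6 h arrays with the comparisons of 6 h against 0 h, so a low or high 6 h array enters both.

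The adaptor LAT is the membrane scaffold phosphorylated by ZAP-70. Lat (10567825) read 13.29 and 13.37 in WT at 0 h, 12.95 and 12.73 at 6 h, and 13.11 and 13.13 at 24 h. The transgenic arrays read 13.26 and 13.31, then 13.11 and 12.76, then 13.18 and 13.19. In each genotype the 6 h arrays were lowest and the 24 h arrays lay between. Lat fell at 6 h by -0.49 ± 0.12 in WT (limma adjusted p = 0.014). In transgenic cells the change was -0.35 ± 0.12 (adjusted p = 0.065), and it was -0.53 without the unmarked 6 h array (adjusted p = 0.013) but -0.17 without the 6 h array marked Rep (adjusted p = 0.38). The WT call was lost without the 0 h array marked Rep (-0.45, adjusted p = 0.081), the 6 h array marked Rep (-0.38, adjusted p = 0.093) or all 3 WT arrays marked Rep (-0.34, adjusted p = 0.28).

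SLP-76 is the cytosolic adaptor that joins LAT. Lcp2 (10375145) read 13.08 and 13.00 in WT at 0 h, 13.23 and 13.36 at 6 h, and 13.27 and 13.34 at 24 h, and in transgenic cells 13.24 and 13.05, then 13.25 and 13.38, then 13.26 and 13.33. The stimulated arrays lay above the 0 h arrays in each genotype, in transgenic cells by little for the unmarked arrays. The changes at 6 h were 0.25 ± 0.09 in WT (limma adjusted p = 0.081) and 0.17 ± 0.09 in transgenic cells (adjusted p = 0.25). Neither these nor the changes at 24 h, 0.27 ± 0.09 and 0.15 ± 0.09, passed.

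**Figure D3:**
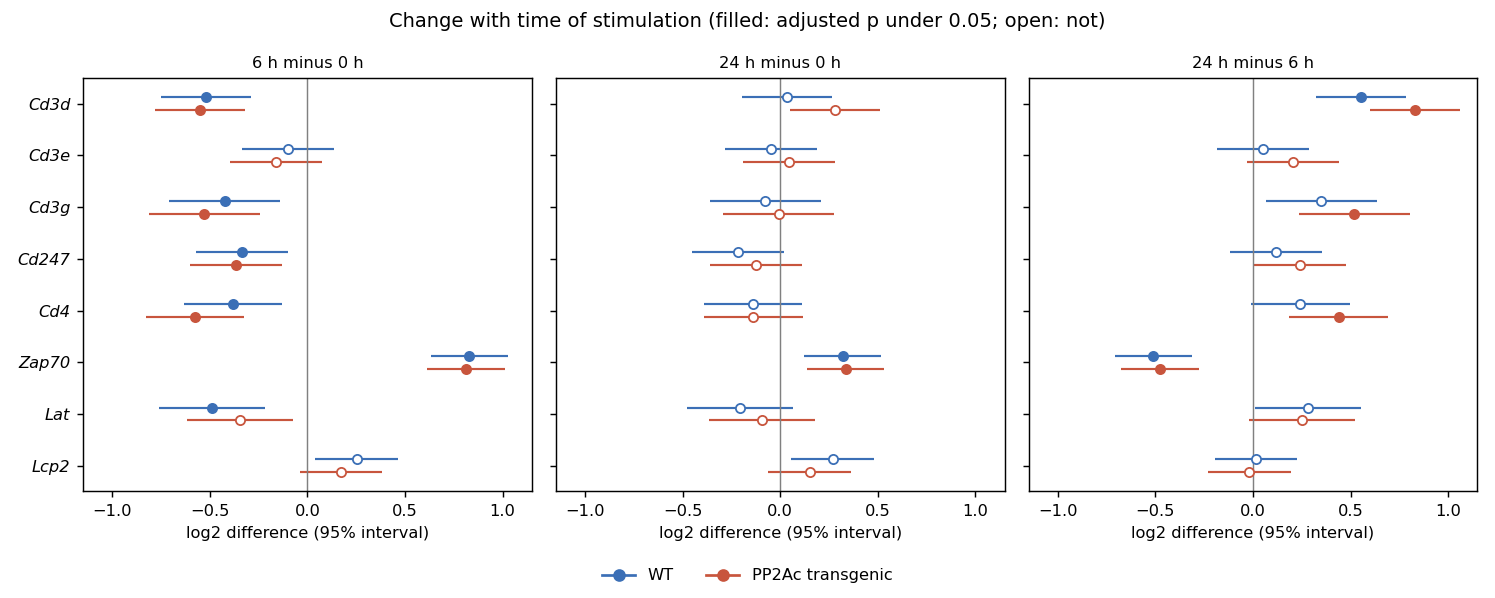
Log2 change of each gene between 2 times with its 95% interval, in WT (blue) and PP2Ac transgenic cells (red); filled points passed an adjusted p under 0.05. At 6 h Cd3d, Cd3g, Cd247 and Cd4 lie to the left and Zap70 to the right in both genotypes, and at 24 h against 0 h Zap70 is the only filled gene.

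The changes were also averaged over both genotypes, a comparison added after the data had been seen. By this measure 7 of the 8 genes changed at 6 h, 2 higher and 5 lower, where 35.5% of all probe sets passed (17.0% higher, 18.5% lower). Beside Zap70 (0.82 ± 0.06), Cd3d (-0.53 ± 0.07), Cd3g (-0.48 ± 0.09), Cd247 (-0.35 ± 0.07), Cd4 (-0.48 ± 0.08) and Lat (-0.42 ± 0.08), this took in Lcp2, which rose by 0.21 ± 0.07 (limma adjusted p = 0.033, called in 16 of 23 settings, but with the 3 WT arrays marked Rep left out 0.16, adjusted p = 0.25). Lat did not pass without the 3 WT arrays marked Rep (-0.35, adjusted p = 0.055). Cd3e did not pass (-0.13 ± 0.07, adjusted p = 0.22). At 24 h against 0 h, Zap70 (0.33 ± 0.06, adjusted p = 0.0025) and Lcp2 (0.21 ± 0.07, adjusted p = 0.034) were higher, against 35.8% of all probe sets, with Lcp2 called in 15 of 23 settings and not without the 3 WT arrays marked Rep (0.18, adjusted p = 0.21). From 6 h to 24 h Cd3d, Cd3g, Cd4 and Lat rose and Zap70 fell (5 of 8, against 25.7% of all, 12.7% higher and 13.0% lower), with Lat called in 7 of 23 settings. Without the 3 WT arrays marked Rep, Cd4 (0.34, adjusted p = 0.082) and Lat (0.21, adjusted p = 0.26) did not pass.

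Other measures moved at the same time as these genes. The mean level of the 8 T cell identity markers was 13.20 to 13.27 at 0 h and 12.63 to 12.87 at 6 h. In WT 3 were called lower and 1 higher, against 13.9% and 12.6% of all probe sets. In transgenic cells 3 were called lower and 2 higher, against 12.9% and 12.5%. The same shares are the background of the 6 h counts that follow. Of the 8 markers, 4 rose and 4 fell in each genotype, with medians of -0.12 in WT and -0.10 in transgenic cells. Il7r fell most, by -2.93 in WT and -3.19 in transgenic cells. B cell markers (6) went from 10.65 to 10.85 on the 0 h arrays to 9.26 to 9.93 on the 6 h arrays, and 4 of the 6 had a called fall in each genotype. On the 24 h arrays their mean was 10.29 to 11.10. All 6 were higher at 24 h than at 6 h, 3 called in WT and 4 in transgenic cells (7.49% and 7.89% of all probe sets). Neutrophil markers were lower at 6 h by a median of -0.42 in WT and -0.70 in transgenic cells, 0 of 8 called. The fit took no account of the mark, and their SE in WT ran from 1.07 (Camp) to 1.52 (Mmp8), so falls of this size could hardly be called. From 0 h to 6 h the list mean went from 12.23 to 11.53 and from 8.77 to 8.54 in WT (unmarked, marked Rep). In transgenic cells it went from 12.09 to 11.28 and from 11.23 to 10.60. Dendritic cell markers (8) had 2 called lower in WT and 3 in transgenic cells, with Cd209a at -1.96 and -2.26 and Flt3 at -0.89 and -0.95. In the same list 2 genes in WT and 3 in transgenic cells rose, none called, with Fscn1 at 0.89 and 0.76. The list medians were -0.11 in WT and -0.49 in transgenic cells. Of the NK cell markers (7), Prf1 was called lower in both genotypes (-1.34 and -0.96) and Eomes higher in WT (0.94). The part of these in the changes of the TCR genes was not tested.

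Between the genotypes, 0 of the 8 genes passed at 0 h, at 6 h or at 24 h, by limma with an adjusted p under 0.05, where 0.00854% of all probe sets passed at each time. By this test Ppp2ca, the gene of the transgene, did not pass at any single time either. The 24 differences of the 8 genes ran from -0.24 to 0.11, and their 95% intervals together spanned -0.47 to 0.37. With all arrays the largest was that of Cd3d at 6 h, where the WT arrays read 11.36 and 11.46 and the transgenic arrays 11.28 and 11.07 (-0.24 ± 0.10, unadjusted p = 0.043, adjusted p = 1). It was the 1 of the 24 with an unadjusted p under 0.05, against 834, 610 and 997 of the 23410 probe sets at the 3 times. Cd3d was also lower in transgenic cells at 0 h (-0.21 ± 0.10, adjusted p = 1), with 11.73 and 11.71 against 11.95 and 11.91, but not at 24 h (0.04 ± 0.10), and none of these passed. The difference of Cd3d at 6 h was -0.13 without the transgenic 6 h array marked Rep and -0.35 without the unmarked one, so its place as the largest depends on the former array.

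The arrays of the genotypes did not overlap in 6 of the 24 cases: Cd3d at 0 h and 6 h, Zap70 at 6 h and 24 h, and Cd3e and Lat at 24 h. Over all probe sets the share without overlap was 33.3% at 0 h, 25.2% at 6 h and 30.7% at 24 h. Zap70 was lower in transgenic cells at each time, by -0.09, -0.11 and -0.08 (SE 0.09 each). Averaged over the times, 0 of 8 passed (0.0256% of all probe sets; 1484 had an unadjusted p under 0.05), and the differences ran from -0.14 ± 0.06 for Cd3d (adjusted p = 0.78) to 0.04 ± 0.07 for Lat. Neutrophil markers were higher in transgenic than in WT cells by a median of 1.24, 0.98 and 0.84 at 0 h, 6 h and 24 h, 0 of 8 called. This direction rests on the WT arrays marked Rep: on the unmarked arrays the mean of the list was 12.23, 11.53 and 11.25 in WT and lower, 12.09, 11.28 and 10.48, in transgenic cells. NK cell markers were higher in transgenic cells for 7 of 7 genes at each time, by a median of 0.50, 0.53 and 0.70, 0 called. On the unmarked arrays their mean was 8.98, 8.67 and 8.56 in transgenic and 8.18, 7.81 and 7.65 in WT cells. Monocyte and macrophage markers were higher in transgenic cells for 7 of 7 genes at each time, by a median of 0.85, 0.59 and 0.75. On the unmarked arrays their mean was 10.41, 10.14 and 10.03 in transgenic and 10.22, 10.48 and 10.17 in WT cells. Medians were 0.37, 0.23 and 0.20 for dendritic cell markers and 0.48, 0.40 and 0.01 for erythroid markers. For B cell markers they were 0.08, 0.05 and 0.38, and for CD8 markers 0.06, 0.30 and 0.53. Of these 4 lists and the monocyte list, 0 genes were called. The part of these cell type markers in the genotype differences was not tested.

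**Figure D4:**
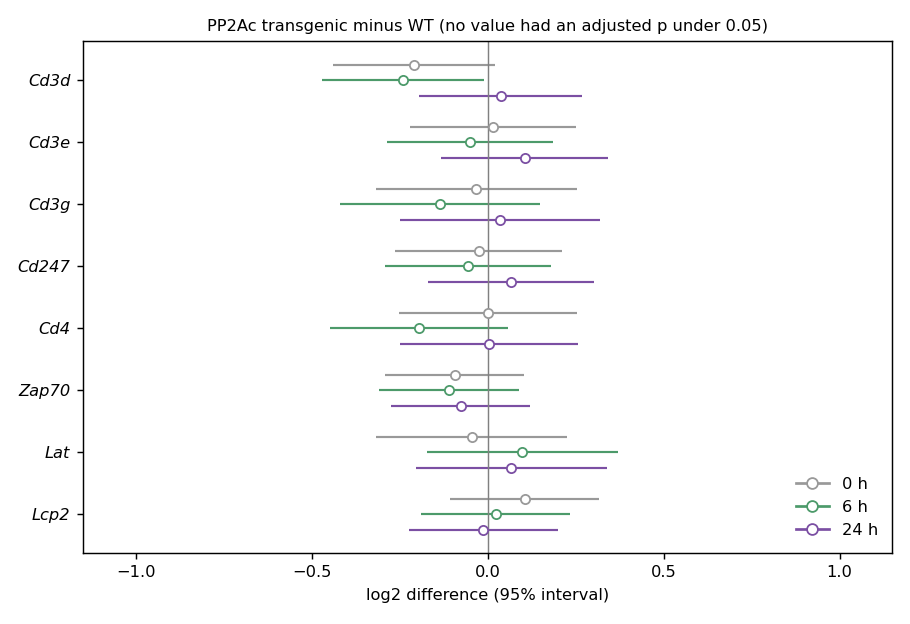
PP2Ac transgenic minus WT log2 difference of each gene at 0, 6 and 24 h with its 95% interval, none with an adjusted p under 0.05. The points lie between -0.24 (Cd3d at 6 h) and 0.11 (Cd3e at 24 h).

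The change with stimulation was also compared between the genotypes, with 0 of 8 genes past the threshold for the 6 h or the 24 h change, as for all tested probe sets (0%; 420 and 625 had an unadjusted p under 0.05). The 16 differences ran from -0.19 (Cd4, 6 h change) to 0.25 (Cd3d, 24 h change), with 95% limits of -0.55 and 0.57 at the widest, and the lowest unadjusted p was 0.12. The transgenic rise of Cd3d from 6 h to 24 h exceeded the WT rise by 0.28 ± 0.14 (unadjusted p = 0.087, adjusted p = 1.0). A called change of Cd3g or Cd4 in transgenic cells and not in WT is therefore not shown to differ: their differences in the 24 h against 6 h change were 0.17 ± 0.18 and 0.20 ± 0.16.

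The rest of the pathway was described with lists of genes of known function, 62 of them measured. At 6 h, 11 were called higher and 23 lower in WT, where 12.6% of all probe sets were called higher and 13.9% lower. In transgenic cells 11 were called higher and 23 lower, where 12.5% of all were called higher and 12.9% lower. The medians of the 62 were -0.23 and -0.20. At 24 h against 0 h these counts were 11 and 25 in WT and 14 and 19 in transgenic cells, where 26.7% and 23.8% of all probe sets were called in either direction. The same shares of all probe sets are the background of the lists that follow. As for the TCR genes, 0 of the 62 passed between the genotypes at any time. The changes at 6 h were larger in several of these genes than in the 8 TCR genes.

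Coreceptors and costimulatory receptors (9) had 3 called in WT at 6 h and 4 in transgenic cells, all higher (12.6% and 12.5% of all probe sets). Icos, a costimulator of the CD28 family, rose by 1.08 ± 0.13 in WT (limma adjusted p = 0.00034) and by 0.98 ± 0.13 in transgenic cells, and Cd5 and Cd6, receptors that restrain TCR signals, by 0.44 and 0.41 in WT and 0.36 and 0.40 in transgenic cells. At 24 h Ctla4, the inhibitory counterpart of CD28, had risen by 0.98 ± 0.15 in WT and 1.02 ± 0.15 in transgenic cells, and Cd2, an adhesion receptor, by 0.39 in each. Cd8a, the other coreceptor, was called at 24 h in transgenic cells (1.88 ± 0.55, limma adjusted p = 0.035). The transgenic arrays read 8.50 and 7.72 at 0 h and 10.56 and 9.42 at 24 h. In WT its difference was 1.39 ± 0.55 (adjusted p = 0.096), and the 24 h changes differed by 0.49 ± 0.77 between the genotypes. The change of Cd8b1 at 24 h was smaller, 0.16 in WT and 0.60 in transgenic cells, and was not called. In bulk RNA the cell type that gave the Cd8a signal cannot be told.

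The other proximal kinases and phosphatases (7) had 4 called lower in each genotype at 6 h (13.9% and 12.9% of all probe sets) and 1 called higher in WT. The latter, named after its value was seen, was Ptprc, the phosphatase CD45 (0.30 ± 0.09 in WT and 0.23 ± 0.09 in transgenic cells, limma adjusted p = 0.043 and 0.12). Txk, a Tec-family kinase of resting T cells, fell most, by -1.85 ± 0.13 in WT (limma adjusted p = 2.8e-05) and -1.72 ± 0.13 in transgenic cells. Tec, of the same family, changed by -0.87 and -0.92, Syk, the relative of ZAP-70, by -0.73 and -0.67, and Abl1 by -0.50 and -0.43. The signals of Zap70 and its relative Syk therefore moved in opposite directions at 6 h in both genotypes. In bulk RNA the cell type that gave the Syk signal cannot be told. B cell markers fell in the same comparison by a median of -1.42 in WT and -1.45 in transgenic cells. Their part in the change of Syk was not tested. At 24 h Txk and Tec were still lower, by -0.97 and -0.68 in WT and by -0.76 and -0.80 in transgenic cells.

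Of the other adaptors (19), 9 were called lower and 1 higher at 6 h in each genotype. Of all probe sets, 13.9% were called lower and 12.6% higher in WT (12.9% and 12.5% in transgenic cells). Sit1, a transmembrane adaptor that binds inhibitory phosphatases, fell by -2.55 ± 0.20 in WT (limma adjusted p = 4.3e-05) and -2.47 ± 0.20 in transgenic cells. Grap2, whose protein GADS links SLP-76 to LAT, fell by -1.68 ± 0.13 and -1.62 ± 0.13, Skap1, an adaptor of integrin activation, by -1.65 and -1.59, and Pag1, which anchors the kinase CSK at the membrane, by -1.32 and -1.35. Of the 3 parts of the LAT, GADS and SLP-76 scaffold, Grap2 thus had a called fall in both genotypes, Lat in WT, and Lcp2 in neither. At 24 h Sh3bp2, an adaptor of SYK-family kinases, was higher by 1.76 ± 0.21 in WT and by 1.56 ± 0.21 in transgenic cells.

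Effectors downstream of LAT and SLP-76 (12) had 2 called higher and 5 called lower in each genotype at 6 h. Of all probe sets, 12.6% were called higher and 13.9% lower in WT, and 12.5% and 12.9% in transgenic cells. Plcg1, the phospholipase that LAT recruits, fell by -1.01 ± 0.13 in WT (limma adjusted p = 0.00036) and also fell in transgenic cells (adjusted p = 0.00040), and the IP3 receptor genes Itpr2 and Itpr3 by -1.37 and -1.40 in WT and by the same amounts in transgenic cells. Malt1, of the complex that leads to NF-kappaB, rose by 1.52 ± 0.12 and 1.33 ± 0.12. At 24 h Vav3 was higher by 0.91 in WT and 0.78 in transgenic cells. Of the negative regulators (14), 4 were called higher and 5 lower at 6 h in each genotype, against the same shares of all probe sets. Sla2 and Sla encode related adaptors that lower receptor levels, and they moved in opposite directions: Sla2 by -2.22 ± 0.13 and Sla by 1.25 ± 0.10 in WT, and by -2.19 and 1.09 in transgenic cells. Ubash3a, a phosphatase-family inhibitor of TCR signals, fell by -1.34 and -1.39. Socs1, an inhibitor of cytokine signals, was higher at 6 h by 1.19 ± 0.17 in WT and 1.74 ± 0.17 in transgenic cells, and at 24 h in WT (adjusted p = 0.00028) and by 2.07 ± 0.17 in transgenic cells. Its changes did not pass the test between the genotypes (6 h change, 0.56 ± 0.25, adjusted p = 1.0). Of 9 gene symbols listed for TCR chains, 1 was measured, Ptcra, a chain of the immature receptor, which did not pass (-0.04 ± 0.12 in WT at 6 h).

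**Figure D5:**
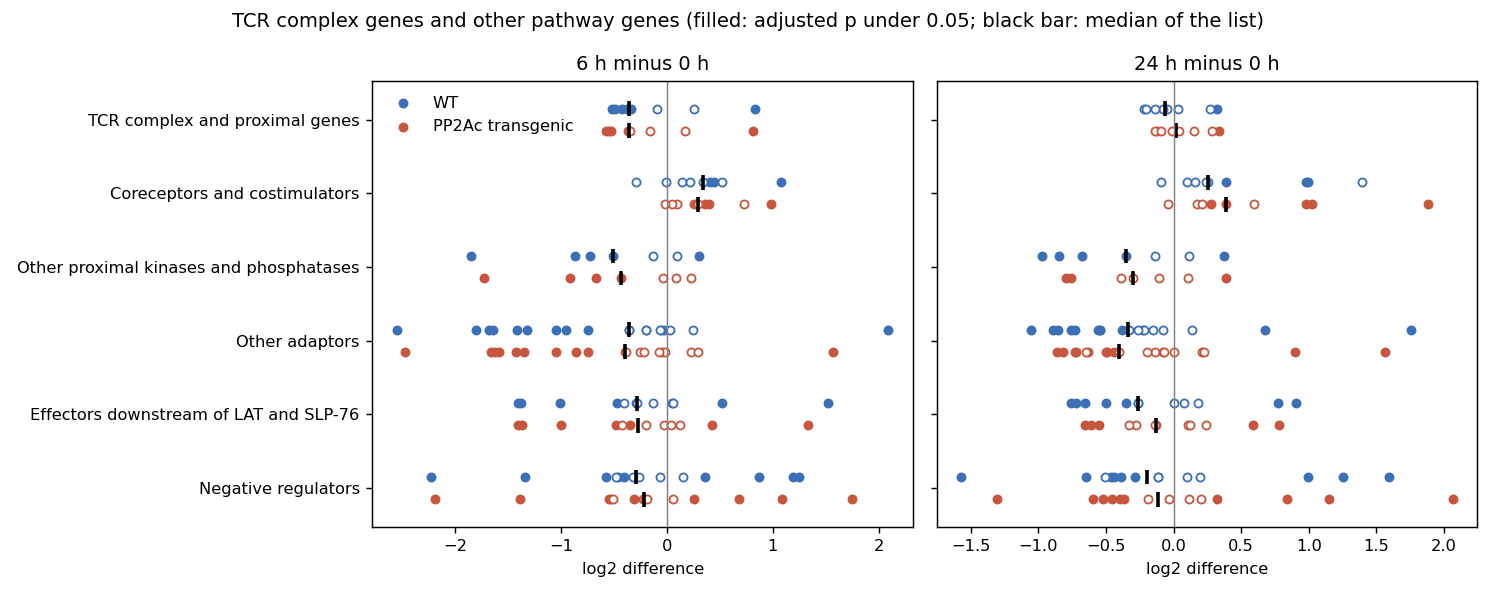
Log2 change at 6 h and 24 h against 0 h of the 8 TCR complex genes and of the genes of 5 pathway lists, WT in blue and PP2Ac transgenic in red; each point is a gene, filled where the adjusted p was under 0.05, and the bar is the median of the list. The TCR genes lie between -0.58 and 0.83 at 6 h, within the wider range of the adaptors (-2.55 to 2.09).

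The 8 genes differed in how far their level moved over the 6 groups. The range of group means was 0.92 for Zap70 and 0.83 for Cd3d, then 0.58 for Cd4, 0.56 for Cd3g, 0.49 for Lat, 0.39 for Cd247, 0.28 for Lcp2 and 0.21 for Cd3e. The root mean square difference between the paired arrays was 0.10 for Zap70 and 0.14 for Cd3d and Cd3e, and reached 0.19 for Cd3g. Neighbours in this order differ by less than the spread between paired arrays, except Cd3d and Cd4, so the order within the other neighbouring pairs is not resolved. Ordered by the root mean square difference of their 6 group means, each centred on its own mean, Cd3g and Cd4 had the most alike patterns of the 28 pairs (0.05), followed by Cd247 and Lat (0.06). Cd3d and Zap70 were the least alike (0.61).

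By the same measure over 20459 other genes, the closest to each gene were Slc2a9 for Cd3d (0.04), Kcnc2 for Cd3e (0.02), Ap4b1 for Cd3g (0.03), Atn1 for Cd247 (0.02), Zfp235 for Cd4 (0.03), Pomt2 for Zap70 (0.03), Chmp5 for Lat (0.02) and Ccnk for Lcp2 (0.02). Ap4b1 was also the second closest to Cd4 (0.04). The measure uses 6 group means of 2 arrays each and was taken as a description.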

How the data were processed

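Each of the 12 arrays gave 1 value per probe set, deposited by the authors as log2 values; their summarisation and normalisation are not given in the sources used here, and cDNA was biotin-labelled per the labels' protocols. Array medians spanned more than 0.1, so values were quantile normalised between arrays. limma 3.58.1 in R 4.3.3 fitted 6 group means to all 12 arrays (6 residual and 3.05 prior degrees of freedom), with Benjamini-Hochberg adjustment over the 23410 probe sets with a symbol in each of 12 comparisons and 3 added ones, and a threshold of 0.05. A change is a difference of log2 means ± SE.

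The 9 genes, the 6 pathway lists and the 9 marker lists were chosen with earlier results of these data known. All 9 genes were to be named, with up to 4 genes per pathway list and comparison by smallest p, and the 3 genes of most alike pattern per gene, of which the closest are named. Pathway and marker genes had 1 probe set each, that with the highest mean.

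Symbols came from the platform annotation: 21789 probe sets had 1 symbol, 1621 several and 5443 none. Promoter windows were read from a RefSeq table, leaving out bases after the start; protein sequences were not used here.

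Samples with the same mark (Rep or none) deviated together: all 15 correlations of deviations between groups were positive (0.138 to 0.591), so a fit with the mark as a replicate block was run. Replicate arrays correlated with r of 0.992 to 0.997 across probe sets. Other settings were the values as deposited, median centring, without the 40% dimmest probe sets, all rows, only 1 probe set for a gene, robust and trended moderation, weights for arrays, only the compared groups, a 2-fold minimum, and leaving out each array or the 3 WT arrays marked Rep. A simulation of WT 6 h against 0 h gave a change to 200 of 23410 probe sets. It recovered 22% of changes of 0.5 and 83% of changes of 1, with 10 false calls among 115. The real comparison called 6209 probe sets, and the Benjamini-Hochberg cutoff depends on how many probe sets change. The simulated rates therefore do not give the sensitivity or the share of false calls of the real test. Plots used Python 3.11.15 and matplotlib 3.10.9.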

Additional observations from a re-analysis of the deposited data

How the results depend on the processing

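No called change of the 8 TCR genes reversed in any setting run. Of the 8 genes, 6 were called in WT at 6 h against 0 h, 3 with median centring (Cd3d, Zap70 and Lat) and 2 without the 3 WT arrays marked Rep, and leaving out 1 array gave 2 to 6. At 24 h against 0 h in WT the count was 1, with 2 without the 40% dimmest probe sets or with trended and robust moderation (Zap70 and Lcp2), 0 in a fit of only the compared groups, 0 without the 3 WT arrays marked Rep, and 0 to 1 leaving out 1 array. At 24 h against 6 h in WT it was 2, with 0 in a fit of only the compared groups, 1 without the 3 WT arrays marked Rep, and 1 to 2 leaving out 1 array. In transgenic cells 5 were called at 6 h (6, with Lat, without the 40% dimmest probe sets, with trended and robust moderation or with array weights; 4, without Cd247, as deposited, with median centring or without the 3 WT arrays marked Rep; 3 to 5 leaving out 1 array), 1 at 24 h against 0 h (0 in a fit of only the compared groups, 0 to 1 leaving out 1 array) and 4 at 24 h against 6 h (2 in a fit of only the compared groups or without the 3 WT arrays marked Rep, 2 to 5 leaving out 1 array). Averaged over genotypes, 7 were called at 6 h (5 without the 3 WT arrays marked Rep, 6 in a fit of only the compared groups, 6 to 7 leaving out 1 array), 2 at 24 h against 0 h (1 without the 3 WT arrays marked Rep, 1 to 2 leaving out 1 array) and 5 at 24 h against 6 h (3 without those arrays, 4 to 5 leaving out 1 array). With a minimum of 2-fold the count was 0 in every comparison. The cause of these shifts was not tested, except that a fit of fewer arrays has fewer degrees of freedom. With the replicate block, Cd3g also passed in WT from 6 h to 24 h (0.35, adjusted p = 0.047), and no other call of the 8 genes changed. Between the genotypes the count for the 8 genes stayed at 0 in all settings.

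Over all probe sets, the count called in WT at 24 h against 0 h went from 6245 to 2867 without the 3 WT arrays marked Rep, and at 24 h against 6 h from 3124 to 1387 without them and to 758 in a fit of only the compared groups. Leaving out 1 array gave 1294 to 2990 in WT and, of 3348, 1376 to 3427 in transgenic cells for 24 h against 6 h, and, of 5569, 3076 to 5503 for transgenic cells at 24 h against 0 h. The genotype counts of 2 at each time were 4 with the replicate block and 1 with 1 probe set per gene, and the averaged count of 6 was 18 with the block and 4 to 19 leaving out 1 array. A lone array left in a group was assumed to vary like the others. The fall of Cd3d and of Cd3g relative to Cd3e was -0.37 and -0.34 with the values as deposited (exact permutation, adjusted p = 0.043 each); with the replicate block, exchanging times only within genotype and mark, the adjusted p was 0.19 each.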
